A study of Penicillium oxalicum with 6 samples.

Results

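Among the genes with the most transcripts in the Ku70 strain of the fungus Penicillium oxalicum, 64 had between 2- and 8-fold less signal in the strain MuPOX00158, which lacks the gene POX00158. These members were chosen by 2 measured values. The first was abundance: the 300 genes with the highest mean FPKM over the 3 Ku70 libraries were taken, out of 9284 genes listed in at least 1 library. FPKM divides a gene's reads by its length and by the reads of the library, so it allows levels of different genes to be compared. The second was the ratio of mean CPM (reads per 1000000 reads of the library), MuPOX00158 over Ku70, which had to be over 0.125 and at most 0.5. This held for 77 of the 300 genes. Of these, 13 were left out by identifier, which leaves 64. The choice sets such identifiers aside for other gene sets, some of them named for cellulases, xylanases and other enzymes. Both values come from the libraries described below, so the lower level in MuPOX00158 is a property of the choice and is described here without a test.

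The libraries came from mycelium of MuPOX00158 and of Ku70, with 3 libraries per strain. The labels call both strains mutants and do not say whether MuPOX00158 also carries the Ku70 change, nor how many transformants stand behind each strain. In all 6 samples about 1 g of hyphae was shaken at 28 °C for 24 h in liquid medium whose carbon source was 1% Avicel, a microcrystalline cellulose. The series names POX00158 a phosphokinase and asks how its loss alters transcription of genes for cellulases and xylanases. Whether the 3 libraries of a strain are separate cultures is not stated, so the spread given below may be technical.

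Soil fungi such as Penicillium oxalicum break down plant cell walls with secreted enzymes, and cellulose or its breakdown products switch on the genes for many of these enzymes. On such a substrate a small number of genes, among them genes of secreted hydrolases, can hold a large part of the messenger RNA. Protein kinases pass signals on by adding phosphate groups to other proteins, and in fungi several kinase pathways link nutrient sensing to transcription. Ku70 is part of the DNA end-joining machinery, and fungal strains without it are widely used because introduced DNA then integrates at the intended place more often.

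What the 64 members encode is not known from the sources used here. The deposited tables hold identifiers only, and none of the 9284 identifiers occurs in the available RefSeq gene table, which carries no symbols beyond locus tags. The members are therefore described by identifier, with no role assigned, and neither the label mycelium nor the presence of spores could be checked by marker genes. The libraries held 2983815 to 3259601 expected counts (estimated reads per gene) over 8677 to 8750 listed genes. POX00158 itself had 4, 8 and 9 reads in MuPOX00158 and 1067, 569 and 763 reads in Ku70, which fits the labels of all 6 libraries.

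The 64 members together held a smaller part of the transcript pool in every MuPOX00158 library. They took 3.68, 4.62 and 3.30% of the expected counts in MuPOX00158 replicates 1, 2 and 3, against 12.9, 11.4 and 11.6% in Ku70 replicates 1, 2 and 3. The means were 3.86 ± 0.679% in MuPOX00158 and 11.9 ± 0.802% in Ku70 (SD, n = 3 each), a ratio of 0.324. MuPOX00158 replicate 2 was the highest of its strain and Ku70 replicate 1 the highest of the other. In such bulk samples, fewer cells that express a gene and less RNA of that gene per cell cannot be told apart.

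The other 236 abundant genes, taken as a whole, took 27.3 ± 0.493% of each MuPOX00158 library on average, beside 28.2 ± 0.998% of each Ku70 library. They are a mixture by construction. The 176 genes whose ratio lay over 0.5 and at most 2 had 16.8 ± 0.759% in MuPOX00158 and 16.9 ± 1.70% in Ku70. The 22 genes with a ratio of at most 0.125 had 0.245 ± 0.0586% in MuPOX00158 and 4.20 ± 0.802% in Ku70. The 25 genes with a ratio over 2 had 8.84 ± 0.727% in MuPOX00158 and 1.52 ± 0.554% in Ku70. The 13 genes left out by identifier had 1.40 ± 0.356% in MuPOX00158 and 5.50 ± 0.751% in Ku70 (SD, n = 3 each throughout). In reads, the members were the largest of the 3 classes with a ratio of at most 0.5.

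**Figure D1:**
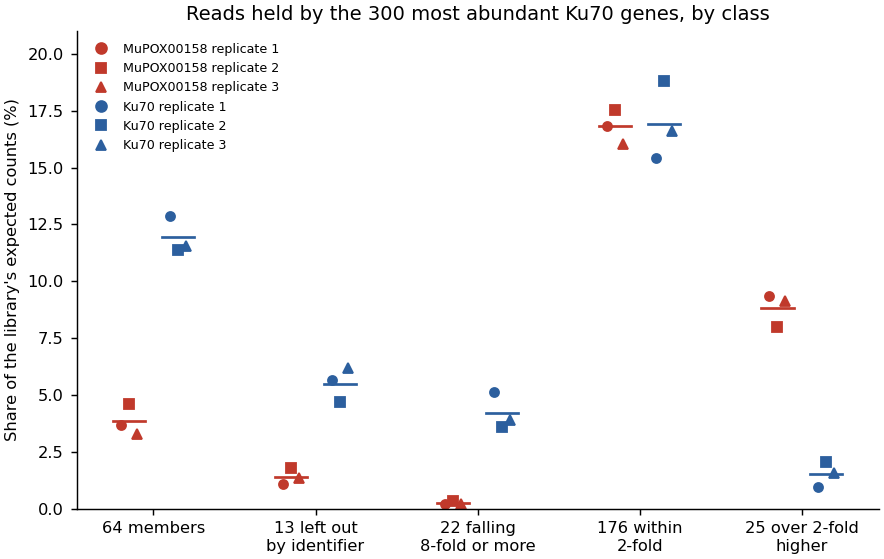
Share of each library's expected counts, in percent, held by 5 classes of the 300 most abundant Ku70 genes. Points are libraries, with the replicate given by the marker, and bars are strain means. The 64 members lie between 3.30 and 4.62% in MuPOX00158 and between 11.4 and 12.9% in Ku70.

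The 10 members with the most reads held 51.7% of all the members' Ku70 reads and 51.2% of the difference between the strains. The top 2 alone, POX06051 and POX05554, held 19.9% of those Ku70 reads. Mean FPKM ran from 76.8 to 6747 in MuPOX00158 and from 563 to 17369 in Ku70, and the median member had 367 FPKM in MuPOX00158 and 1039 FPKM in Ku70.

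POX05554 had the highest mean FPKM of all genes in Ku70. It had 3633, 5354 and 2771 CPM in the MuPOX00158 libraries, against 11317, 10003 and 8916 CPM in the Ku70 libraries. Its mean level was 6747 ± 2277 FPKM in MuPOX00158 and 17369 ± 1886 FPKM in Ku70 (SD, n = 3 each), and it still held place 6 by FPKM in MuPOX00158. The strains did not overlap, and MuPOX00158 replicate 2 was the highest of its strain.

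POX06051, at place 4 in Ku70, had the most reads of all members. It had 4777, 6502 and 4995 CPM in the MuPOX00158 libraries, against 14174, 11962 and 14915 CPM in the Ku70 libraries. The mean level was 3422 ± 600 FPKM in MuPOX00158 and 8638 ± 990 FPKM in Ku70 (SD, n = 3 each). All MuPOX00158 values lay below all Ku70 values, with a fold difference of 2.52, close to the 2.57 of POX05554.

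POX06036 and POX06820 completed the members among the 10 highest in Ku70. POX06036 had 1568, 1396 and 1048 CPM in MuPOX00158, against 2433, 3677 and 2808 CPM in Ku70. POX06820 had 1307, 1986 and 1025 CPM in MuPOX00158, against 3142, 3681 and 3002 CPM in Ku70. Both were a little over 2-fold lower (2.22 and 2.28), and neither showed overlap between the strains.

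The next members by Ku70 level, POX08485, POX05915 and POX01317, had larger differences. POX08485 had 1566, 2103 and 1621 CPM in MuPOX00158, against 7910, 7298 and 9961 CPM in Ku70, which is 4.76-fold lower. POX05915 had 1623, 2276 and 1591 CPM in MuPOX00158, against 7981, 5278 and 6703 CPM in Ku70, which is 3.64-fold lower. POX01317 had 598, 1581 and 553 CPM in MuPOX00158, against 7694, 3350 and 4543 CPM in Ku70, which is 5.71-fold lower. In these 3 genes too, MuPOX00158 replicate 2 was the highest library of its strain, most clearly in POX01317.

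POX07870, POX06145 and POX09287 followed by level in Ku70. POX07870 had 460, 583 and 421 CPM in MuPOX00158, against 352, 2108 and 1488 CPM in Ku70. Its strains overlapped, because Ku70 replicate 1 lay below every MuPOX00158 library. POX09287 had 325, 376 and 336 CPM in MuPOX00158, against 1803, 1031 and 1393 CPM in Ku70, without overlap and with similar values in the 3 MuPOX00158 libraries. POX06145 is taken up with its neighbour further on.

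**Figure D2:**
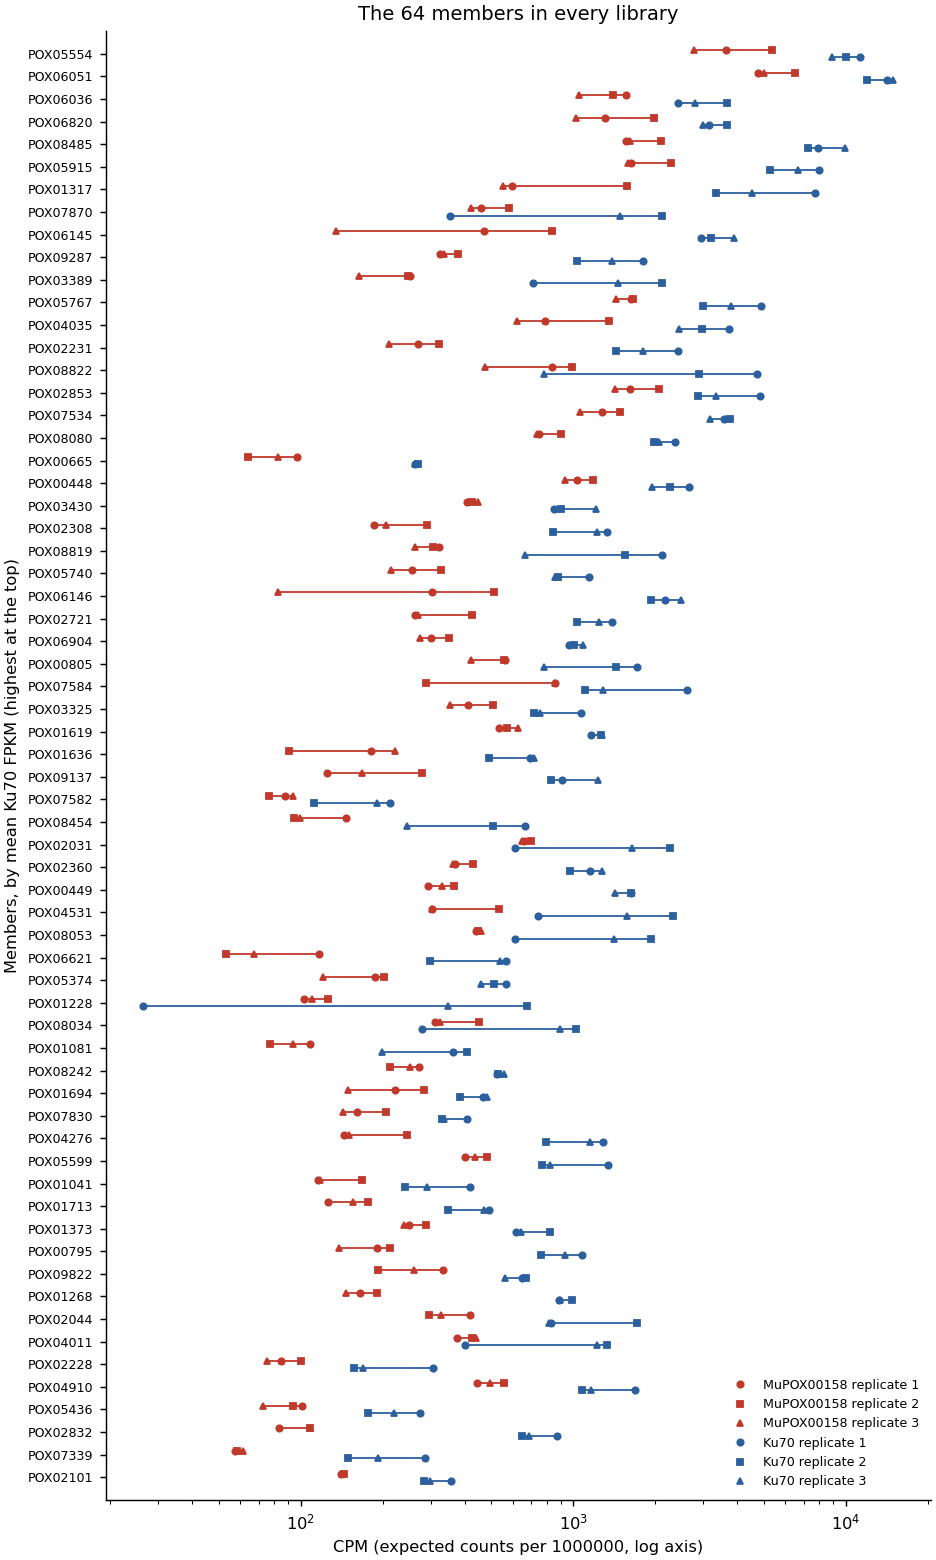
CPM of the 64 members in all 6 libraries on a log axis, ordered by mean Ku70 FPKM from the highest (POX05554, top) to the lowest (POX02101, bottom). Markers give the replicate and lines join the lowest and highest library of a strain. In 58 members all MuPOX00158 points lie left of all Ku70 points, and the widest Ku70 line is that of POX01228.

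Few members kept their place in MuPOX00158, which the choice by high Ku70 level and lower ratio itself favours. Within the 100 highest genes by FPKM there were 4 members in MuPOX00158 and 28 in Ku70. In MuPOX00158, 19 of the 64 were still within the 300 highest, and the median place was 441.5. POX02832 had the lowest place, 2193 in MuPOX00158, against 282 in Ku70.

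The size of the difference varied among the members over nearly the whole range that the choice allows. The ratio of mean CPM corresponded to a level at least 2-fold and up to 7.40-fold lower, with a median of 2.94-fold. A total of 33 members were under 3-fold lower, 13 were 3- to 4-fold lower, 7 were 4- to 5-fold lower and 11 were at least 5-fold lower. In the edgeR fit over all genes, the median log2 fold change of the members was -1.64, with a range from -2.96 to -1.07. The median over all 7757 genes tested was 0.00029. The fit rescales the libraries by TMM, which tends to bring this median near 0, so its fold changes differ somewhat from the CPM ratios. With plain library sizes the medians were -1.56 for the members and 0.078 for all genes tested.

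POX02832 had the largest difference, with 83.1, 108 and 108 CPM in MuPOX00158 against 871, 651 and 687 CPM in Ku70 (log2 fold change -2.96, SE 0.20). POX02231 was 7.07-fold lower, with 269, 321 and 211 CPM in MuPOX00158 against 2418, 1435 and 1809 CPM in Ku70. Neither gene had overlapping strains, and in both Ku70 replicate 1 was the highest library. POX06146 and POX06145 complete the 4 lowest ratios.

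At the other end, POX03325 and POX07582 lay at the edge of the choice. POX03325 had 412, 507 and 354 CPM in MuPOX00158, against 1069, 720 and 756 CPM in Ku70, a ratio of 0.49997. POX07582 had 87.8, 76.4 and 93.6 CPM in MuPOX00158, against 213, 112 and 191 CPM in Ku70, a ratio of 0.49986. POX08034 and POX01694 were next, with ratios of 0.495 and 0.490.

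Genes just outside the limits had nearly the same values. POX00571, with 304 ± 42.8 CPM in MuPOX00158 and 606 ± 233 CPM in Ku70, missed the upper limit with a ratio of 0.501. POX00976, with 548 ± 206 CPM in MuPOX00158 and 1080 ± 110 CPM in Ku70, had a ratio of 0.507. At the lower limit, POX08826 had 98.7 ± 26.9 CPM in MuPOX00158 and 817 ± 400 CPM in Ku70 (ratio 0.121), and POX03085 had 164 ± 83.9 CPM in MuPOX00158 and 1411 ± 361 CPM in Ku70 (ratio 0.116; SD, n = 3 each). The members therefore form a stretch of a continuous range rather than a group set apart by a gap in the ratio. By level, the last member was POX02101, with 255 ± 4.51 FPKM in MuPOX00158 and 563 ± 65.6 FPKM in Ku70, at place 286 of the 300. POX00913 held place 300 with 537 FPKM in Ku70, and POX02605 the next place with 536 FPKM.

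**Figure D3:**
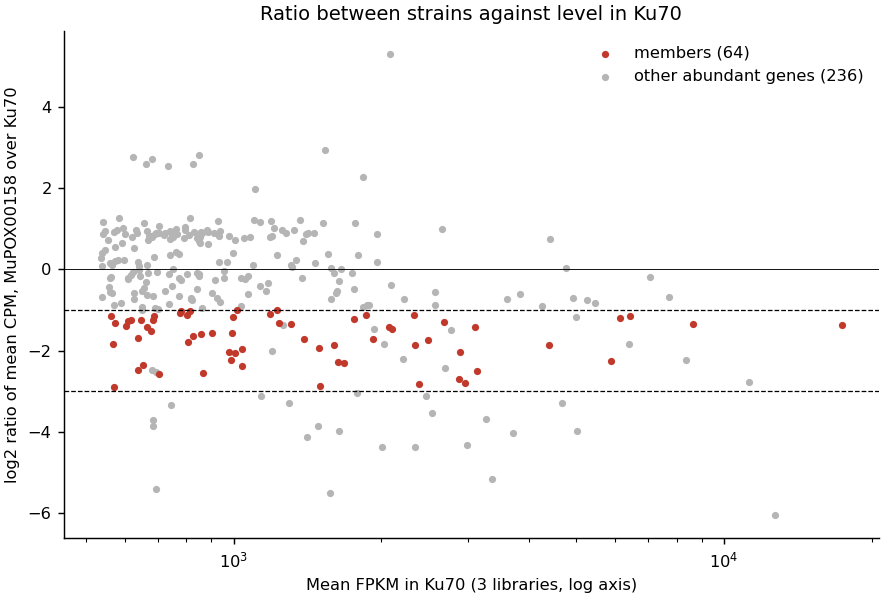
Log2 ratio of mean CPM, MuPOX00158 over Ku70, against mean Ku70 FPKM (log axis) for the 300 most abundant Ku70 genes. The 64 members are red, the other 236 genes grey, and the dashed lines mark the 2- and 8-fold limits of the choice. Grey points between the dashed lines are the 13 genes left out by identifier, and the members range from 563 to 17369 FPKM, with none between POX06051 at 8638 FPKM and POX05554.

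Of the 64 members, 60 were called lower in MuPOX00158 by edgeR's quasi-likelihood test (adjusted p below 0.05), beside 18.6% of all 7757 genes tested. All 64 passed the filter on low counts. In 58 members the strains' libraries did not overlap, beside 20.6% of all genes tested that were lower without overlap. Since the members were chosen on this contrast, nothing is read from these counts. The 4 members not called were POX07870, POX02031, POX08034 and POX01228, and these 4 also had overlapping libraries, as did POX08822 and POX04011. All 4 were called once Ku70 replicate 1 was left out, and then 62 members were called, beside 21.8% of all genes tested. In that fit POX08822 and POX07584 lost their calls (adjusted p 0.0705 and 0.0943, quasi-likelihood test). Without MuPOX00158 replicate 3 the count was 51, beside 12.4% of all genes, and without MuPOX00158 replicate 1 it was 52, beside 12.7%.

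Members differed in how steady they were between libraries of a strain. The median coefficient of variation was 17.7% over the MuPOX00158 libraries and 21.5% over the Ku70 libraries. For the 176 abundant genes within 2-fold it was 6.30% in MuPOX00158 and 26.2% in Ku70. It was 26.8% in MuPOX00158 and 15.5% in Ku70 for the 13 genes left out by identifier, and 30.1% in MuPOX00158 and 27.0% in Ku70 for the 22 genes with a ratio of at most 0.125. Over all tested genes it was 13.7% in MuPOX00158 and 20.6% in Ku70. Some members hardly varied over the Ku70 libraries, such as POX00665 with 263, 268 and 264 CPM (coefficient of variation 1.07%). It was less steady in MuPOX00158, with 97.2, 63.8 and 82.2 CPM and a coefficient of variation of 20.6%. Its effective length was the shortest of all members at 138 bases. Effective length here is the length implied by count and FPKM, not an annotated gene length. A short effective length raises FPKM for a given count, and this gene held place 57 by Ku70 FPKM with a mean of 265 CPM in Ku70.

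A group of 8 members had a low value in Ku70 replicate 1, under 0.5 times the mean of Ku70 replicates 2 and 3. These 8 were POX07870, POX03389, POX02031, POX04531, POX08053, POX01228, POX08034 and POX04011, picked out after their values were seen. Their summed level was 2899, 3511 and 2869 CPM in the MuPOX00158 libraries, against 3729, 13778 and 10048 CPM in the Ku70 libraries. In this sum Ku70 replicate 1 stood just above the MuPOX00158 libraries, and Ku70 replicates 2 and 3 stood far above them. Such a low value was seen in 35 of the other 236 abundant genes (14.8%, beside 12.5% of the members), and this difference was not tested.

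POX01228 was the most extreme of the 8. It had 103, 126 and 110 CPM in MuPOX00158, against 26.4, 677 and 348 CPM in Ku70. Its Ku70 replicate 1 value, from 81 reads, was the lowest of all 6 libraries, and the coefficient of variation over Ku70 was 92.8%. POX02031 and POX08034 had the same form, with 610 and 279 CPM in Ku70 replicate 1, below every MuPOX00158 library of the gene. POX04531 had 304, 533 and 304 CPM in MuPOX00158, against 739, 2330 and 1581 CPM in Ku70, and POX03389 had 251, 247 and 164 CPM in MuPOX00158, against 709, 2110 and 1460 CPM in Ku70. In these last 2 genes Ku70 replicate 1 was the lowest of its strain but remained above the mutant.

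A smaller group of 4 members was low in Ku70 replicate 3 instead, at under 0.5 times the mean of the other Ku70 libraries. POX08822 had 836, 989 and 475 CPM in MuPOX00158, against 4735, 2883 and 783 CPM in Ku70, so that Ku70 replicate 3 fell among the mutant values. POX08819, whose identifier lies 3 numbers away, had 321, 305 and 262 CPM in MuPOX00158, against 2125, 1542 and 667 CPM in Ku70. The abundant gene POX08821, numbered between POX08819 and POX08822, had a ratio of 0.875 and is not a member. POX08454 had 147, 94.8 and 99.2 CPM in MuPOX00158, against 666, 507 and 245 CPM in Ku70. POX00805 had 562, 555 and 421 CPM in MuPOX00158, against 1711, 1437 and 782 CPM in Ku70, and like POX08454 and POX08819 it kept its strains apart. Of the other abundant genes, 6 of 236 (2.54%) were as low in this library, beside 6.25% of the members, a difference that was not tested.

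Within MuPOX00158, replicate 2 was the library in which most members were highest. It held the highest value of its strain in 43 of 64 members (67.2%), in 63 of the 176 abundant genes within 2-fold (35.8%) and in 31.5% of all tested genes. With TMM-scaled library sizes the shares were 78.1, 49.4 and 37.4%. The 13 genes left out by identifier had it highest in 11 cases and the 22 genes with a ratio of at most 0.125 in 15. Genes are not independent replicates, and the differences between these shares were not tested. In Ku70, replicate 1 was highest in 34 of the 64 members (53.1%). It was highest in 52 of the 176 genes within 2-fold (29.5%) and in 45.4% of all tested genes. With TMM-scaled library sizes the shares were 53.1, 22.2 and 41.0%. Ku70 replicate 1 was also highest in 15 of the 22 genes with a ratio of at most 0.125, but in only 2 of the 13 left out by identifier. In 10 of those 13, Ku70 replicate 3 was highest. These differences were not tested either.

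The ratio of MuPOX00158 replicate 2 to the mean of replicates 1 and 3 had a median of 1.21 over the members. It reached at least 2 in 3 of them, POX06145, POX01317 and POX06146. The reverse was seen in POX07584, with 860, 288 and 855 CPM in MuPOX00158, against 2614, 1105 and 1286 CPM in Ku70. POX01636 also was lowest in MuPOX00158 replicate 2, with 182, 90.5 and 221 CPM in MuPOX00158, against 692, 492 and 719 CPM in Ku70. Replicate 2 therefore was not higher in every member.

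**Figure D4:**
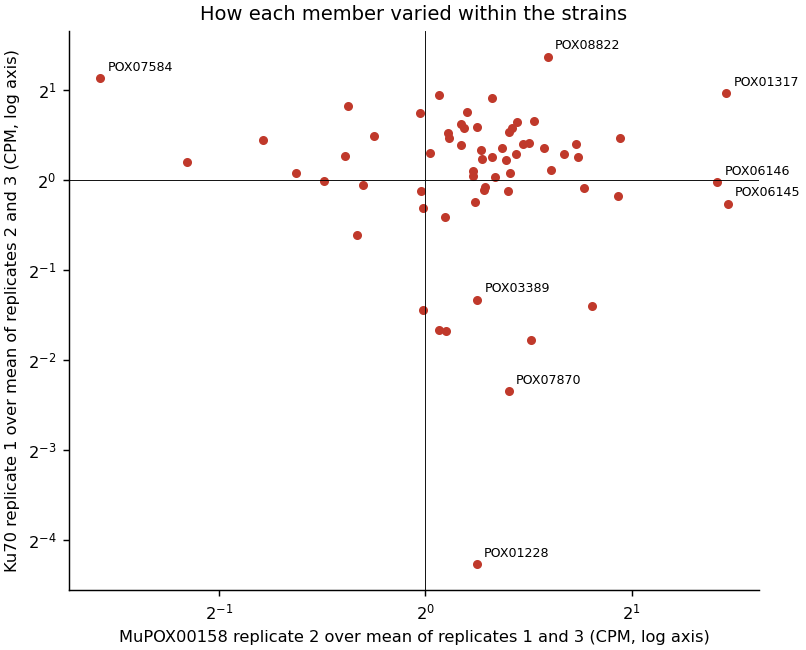
Each point is 1 of the 64 members. The x axis gives CPM in MuPOX00158 replicate 2 over the mean of MuPOX00158 replicates 1 and 3, and the y axis gives CPM in Ku70 replicate 1 over the mean of Ku70 replicates 2 and 3, both on log axes. The 8 members low in Ku70 replicate 1 lie at the bottom, down to 0.0516 for POX01228, and most points lie right of 1 on the x axis.

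Members with consecutive identifiers behaved alike in POX06145 and POX06146. POX06145 had 469, 834 and 135 CPM in MuPOX00158, against 2951, 3204 and 3883 CPM in Ku70. POX06146 had 303, 514 and 82.2 CPM in MuPOX00158, against 2162, 1933 and 2478 CPM in Ku70. In both genes MuPOX00158 replicate 3 was about 0.2 times the mean of MuPOX00158 replicates 1 and 2 (0.207 and 0.201), and their coefficients of variation over MuPOX00158 were the highest of all members (72.9 and 72.0%). The next identifier, POX06147, which was left out of the members by identifier, had 605, 1041 and 796 CPM in MuPOX00158, against 2287, 1762 and 2699 CPM in Ku70. It did not share the low value in MuPOX00158 replicate 3.

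The other members with consecutive identifiers, POX00448 and POX00449, differed in size. POX00448 had 1034, 1184 and 932 CPM in MuPOX00158, against 2655, 2266 and 1952 CPM in Ku70, which is 2.18-fold lower. POX00449 had 292, 365 and 331 CPM in MuPOX00158, against 1626, 1628 and 1421 CPM in Ku70, which is 4.73-fold lower. Both had no overlap between the strains.

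Lower levels in MuPOX00158 were also found among genes with the identifier next to a member. Of 94 tested genes that were numbered 1 above or below a member and were not members themselves, 27 (28.7%) had a ratio of at most 0.5. Without the identifiers that the choice left out, this was 24 of 91 (26.4%). Beside the 176 abundant genes within 2-fold, 31 of 287 neighbours (10.8%) had such a ratio, again without counting those genes themselves. Over the neighbours of all tested genes it was 842 of 7399 (11.4%) without the members and 903 of 7460 (12.1%) with them. These are counts from the same libraries, the difference was not tested, and how identifier numbers map to genome position is not given in the sources used here.

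Values are given for 5 of these neighbours, picked after they were seen. POX01318, beside POX01317, had 0.335, 1.53 and 0.655 CPM in MuPOX00158, against 26.4, 14.4 and 27.2 CPM in Ku70. These values rest on few reads, 1, 5 and 2 in MuPOX00158 and 81, 46 and 86 in Ku70. POX05553, beside the most abundant member POX05554, had 28.8, 22.1 and 21.9 CPM in MuPOX00158, against 125, 71.2 and 82.7 CPM in Ku70. POX08242 had a lower neighbour on each side. POX08241 had 54.0, 36.5 and 46.5 CPM in MuPOX00158, against 258, 142 and 212 CPM in Ku70, and POX08243 had 68.7, 120 and 81.5 CPM in MuPOX00158, against 345, 377 and 382 CPM in Ku70. POX06052, beside POX06051, had 24.1, 60.4 and 20.0 CPM in MuPOX00158, against 34.6, 371 and 245 CPM in Ku70. In POX06052 the strains overlapped through Ku70 replicate 1, a form that POX06051 itself did not show.

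The median effective length of the members was 927 bases, with quartiles at 552 and 1435 bases. The median was 647 bases for the other 236 abundant genes, 607 bases for the 176 within 2-fold, 716 bases for the 22 with a ratio of at most 0.125 and 418 bases for the 25 with a ratio over 2. It was 1171 bases, above that of the members, for the 13 genes of the same ratio range that were left out by identifier. An effective length of at least 1400 bases was found in 19 members (29.7%) and in 35 of the other 236 genes (14.8%). Over all tested genes the median was 1261 bases. The difference between members and other abundant genes was not tested. No member had a fractional expected count in any library, beside 1 of the other 236 abundant genes and 21 of all 7757 genes tested.

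**Figure D5:**
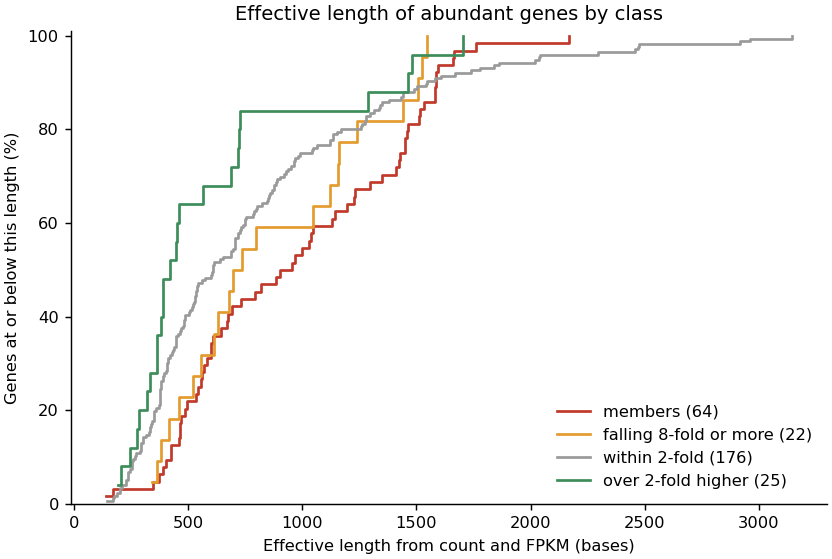
Cumulative share of genes, in percent, at or below an effective length in bases, for 4 classes of the 300 most abundant Ku70 genes. The curve of the 64 members lies right of that of the 176 genes within 2-fold over most of the range, with medians of 927 and 607 bases.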

How the data were processed

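The authors deposited, for each library, an expected count and an FPKM value per gene, per the file headers. The submitters' processing notes list BWA 0.7.10-r789, DESeq2, Bowtie2 2.1.0 and RSEM 1.2.12, with no step attached to any of them. Build, annotation and strandedness: not given in the sources used here. Tables list no gene at 0, so a missing gene was taken as 0 (lowest listed value 0.5). Strains were taken from the strain label, and replicates were numbered in deposition order.

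CPM is expected count over the library total times 1000000. Counts rounded to whole numbers were fitted over all genes with edgeR 4.0.16 in R 4.3.3 (filterByExpr with a minimum count of 10 and total of 15, TMM, quasi-likelihood test, Benjamini-Hochberg). The code was tested on simulated data first. DESeq2 1.42.0 and limma 3.58.1 on FPKM were alternatives. Titles end in the letter F, S or T in both strains. Deviations of same-lettered libraries from their strain means correlated at 0.150, 0.219 and 0.159, so the letter was also fitted as a replicate block. With 3 libraries a strain and at least 81 reads per member and library, spread between libraries limits precision.

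The rule was read as taking the 300 most abundant genes first. Genes named are those with the highest level, the largest and smallest ratios, the largest variation and consecutive identifiers, those at the limits, and others singled out after their values were seen. Members and lists were chosen with earlier results of these data known. Planned lists by gene product could not be formed without product names.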

Additional observations from a re-analysis of the deposited data

How the results depend on the processing

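The choice found 48 to 85 members with other limits (48 with the 200 most abundant genes, 85 with 400, 80 with abundance by CPM, of which 50 were shared with the 64, 69 with TMM-scaled CPM and 64 with FPKM in the ratio) and 60 to 69 with 1 library left out. Without Ku70 replicate 1 it found 63, of which 49 were shared with the 64. Of the 64, 57 to 63 were called lower under other tools, filters and scalings, 59 in the paired fit with the replicate block (which ended the call of POX04011), and 51 to 62 with 1 library left out, 51 without MuPOX00158 replicate 3 and 52 without MuPOX00158 replicate 1. Of 960 comparisons of a member with an alternative, 914 kept their side of the threshold, 38 lost the call, 8 gained it and none changed direction. The changes fell on 13 members. Without Ku70 replicate 1, POX07870, POX02031, POX08034 and POX01228 were called (3 of them also with DESeq2), with log2 fold changes of -1.99, -1.66, -1.50 and -2.30, against -1.54, -1.28, -1.11 and -1.76 with it. Without MuPOX00158 replicate 1 or 3, POX05554, POX06051, POX06820, POX02853 and POX08053 were not called, and POX06036 was not called without replicate 3. The calls of POX08822, POX07584 and POX04011 were lost in 8, 10 and 9 of the 15 alternatives. The members' median log2 fold change was -1.49 with limma on log2(FPKM + 1), with or without the filter, and also -1.49 with a pseudocount of 0.1, against -1.64, and -1.71 to -1.57 with 1 library left out. Their share in Ku70 was 13.4% of summed FPKM, against 11.9% of reads. The cause of these differences was not tested. Members without overlap numbered 63 without Ku70 replicate 1 (27.8% of all tested genes) and 58 or 59 without any other library (22.3 to 27.4% of all tested genes). Over all genes, 2888 changed (1442 higher, 1446 lower), 2913 with plain library sizes (1625 higher, 1288 lower), 2909 with the replicate block and 1984 to 3323 with 1 library left out.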

Other observations

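Across the 64 members, as a description, the Spearman correlation of log2 ratio with mean Ku70 FPKM was -0.13, and with effective length it was -0.17. Over all 300 abundant genes these were -0.32 and -0.35. The genes share libraries, and the Ku70 value enters both level and ratio. The choice also limits the range of the ratio among the members. Their correlations are therefore not comparable with those over all 300 abundant genes.

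Differences of this size were not limited to abundant genes. Of the 9284 genes listed in at least 1 library, 1090 had a ratio over 0.125 and at most 0.5, beside 77 of the 300 abundant genes. No filter on low counts was applied to the 1090. Taking the 300 with the highest Ku70 FPKM among the 1090 gives 277 genes after the same identifiers are left out.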
